A study of Mus musculus with 8 samples.

Results

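RNA-seq of the sorted GFP+ and Tomato+ cells of the second heart field (SHF) region compared cells that express a Hoxb1 reporter with cells of the Mef2c-Cre lineage, gene by gene. The study takes the GFP+ cells as posterior progenitors, but genes of heart muscle, endoderm and the anterior SHF were also higher in them, as given below. All genes that averaged 10 or more normalized reads over the 3 GFP+ and 3 Tomato+ libraries were taken, which was 16153 of the 16302 genes in the table, and these 6 of the 8 libraries were used. The means of the genes nearest to this limit were 10.04, 10.07 and 10.09 inside it and 9.75, 9.86 and 9.96 outside it. A normalized read is a read divided by the size factor of its library. All ratios were recomputed from the library values, as GFP+ over Tomato+ on the log2(normalized reads + 1) scale, which understates the change of low genes, and folds are given for the higher over the lower population.

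GFP+ cells came from embryos of the Hoxb1-GFP line, in which GFP reports the activity of Hoxb1, and Tomato+ cells from Mef2c-Cre;Rosa-tdT embryos. Both were at embryonic day 9.5, and in both the SHF region was micro-dissected, embryos were pooled, and tissue was digested with trypsin before sorting by flow cytometry. The Cre of the Tomato line is driven by a fragment of Mef2c that is active in the anterior heart field, and recombination is permanent, so red cells include descendants that no longer use that fragment. The study's methods list the GFP allele under the name of a Hoxb1 loss allele, so GFP+ cells may carry a disrupted copy of Hoxb1, and whether they had 1 or both is not stated in the labels. An effect of the reporter alleles on Hoxb1 or other genes was not tested, and the populations come from different lines, so line and cell population cannot be told apart.

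The SHF is a pool of progenitors beside the pharynx that keeps adding cells to both ends of the looping heart tube. Its anterior cells build the outflow tract and the right ventricle, and its posterior cells, which are exposed to retinoic acid and use anterior Hox genes, build the atria and the tissue that divides them. The progenitors lie against pharyngeal endoderm and ectoderm and exchange Shh, Fgf, Bmp and Wnt signals with them. Because cells were sequenced in bulk, fewer cells of a type and less RNA per cell cannot be told apart.

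The 6 libraries held 22668185 to 41597870 reads, of which 12765045 to 27249149 fell outside mitochondrial genes, and 3 reads corresponded to 2.16 to 4.25 normalized reads. Replicates 1 and 3 of each group were close to copies of each other. Their reads gave a chi-square per degree of freedom of 2.35 within GFP+ cells and 2.38 within Tomato+ cells, whereas pairs with replicate 2 gave 72.4 to 93.0. Counts and adjusted p-values were therefore also taken after averaging replicates 1 and 3 into a single value, and these are marked averaged. When libraries with such near copies were simulated, the fit to 3 libraries made many false calls and the averaged fit did not. Counts and p-values from 3 libraries are therefore too favourable. The simulation gave every gene the same scatter, so it cannot show how reliable the averaged fit is here. An averaged p rests on 2 values per group and largely on scatter pooled over genes, and is not always the stricter. For Hoxd11 the limma adjusted p was 0.00488 and averaged 0.00118. Its log2 ratio was −7.05 in replicates 1 and 3 but −2.92 in replicate 2. The study calls the libraries biological replicates, but no label states that each came from its own pool of embryos, so every p reflects only how these libraries scatter, a scatter that may be technical.

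The populations differed over a large part of the transcriptome, and the large differences were mostly genes that were lower in GFP+ cells. With limma and a Benjamini-Hochberg adjusted p under 0.05, 6410 genes (39.7%) were called, of which 3186 (19.7%) were higher and 3224 (20.0%) lower in GFP+ cells. With replicates 1 and 3 averaged, 2930 genes (18.1%) were called, 1437 (8.90%) higher and 1493 (9.24%) lower, and 1409 (8.72%) and 1484 (9.19%) were called in both fits. A difference is named strong below when it was called in both fits, reached 4-fold, averaged 100 normalized reads or more in the higher group and showed no overlap between the groups. Strong differences numbered 187 higher (1.16%) and 503 lower (3.11%) in GFP+ cells. Of these, 32 higher and 149 lower genes reached 16-fold.

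The middle of the distribution depended on the scaling. The median log2 ratio of all genes was −0.01 with the authors' size factors, where 49.7% of calls were higher in GFP+ cells. It was −0.15 when mitochondrial and globin genes were left out and libraries rescaled, where 36.5% of calls were higher, and −0.08 with upper quartile scaling, where 42.5% were higher. Small ratios are therefore best read against these shifts, whereas the counts of strong differences ran from 148 to 195 higher and from 467 to 586 lower over the alternatives run.

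Replicate 2 gave a second reading of each ratio beside the near copies. Of 528 genes at least 4-fold higher in GFP+ cells in replicates 1 and 3, 240 were also 4-fold higher in replicate 2, and of 1129 genes at least 4-fold lower, 652 were also 4-fold lower. All 690 strong differences had the same direction in both readings, which their definition fixes, since the groups must not overlap. The groups did not overlap for 8820 genes (54.6%), a share so large that lack of overlap alone says little about a gene.

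**Figure D1:**
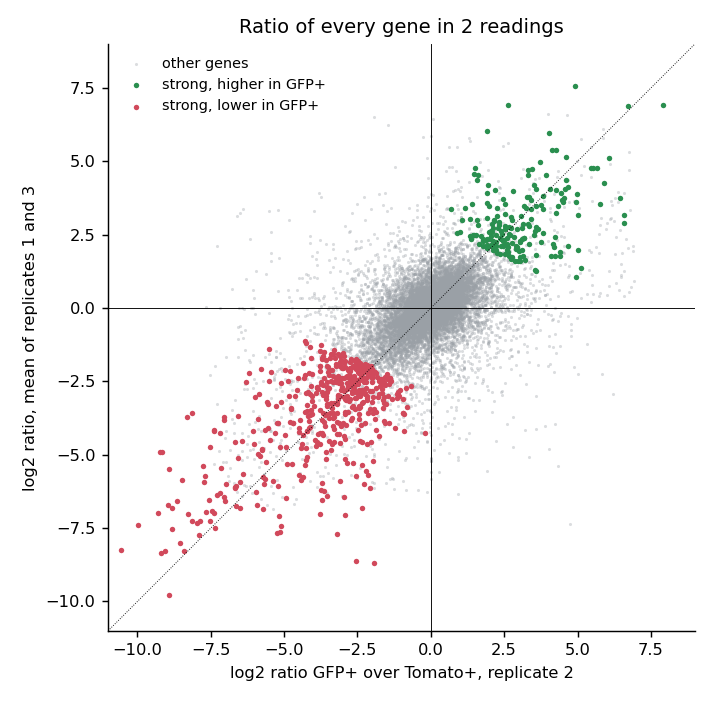
Each point is a gene, with its log2 ratio of GFP+ over Tomato+ cells in replicate 2 on the x axis and the mean of replicates 1 and 3 on the y axis, the dotted line marks equal ratios, and colours mark strong differences. The 187 strong genes higher in GFP+ cells lie at the upper right and the 503 lower genes in the lower left, while the grey cloud of other genes spreads widely around the line.

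The 3 posterior markers were higher in GFP+ cells, but the reporters did not separate their own genes completely. Hoxb1, the homeobox gene that drives the reporter (GRCm38 chromosome 11, 96365752 to 96368256), had 843, 719.9 and 986 normalized reads in GFP+ cells, against 301, 415 and 292 in Tomato+ cells. No library overlapped, but Tomato+ cells kept Hoxb1 reads, and the ratio was 2.54-fold (limma adjusted p = 0.00118, averaged 0.00718). Gata4, a zinc finger factor of heart and foregut mesoderm (chromosome 14, 63198922 to 63271692), had 2238, 2169.8 and 2192 in GFP+ cells, against 206, 159 and 181 in Tomato+ cells, a 12.1-fold difference (limma adjusted p = 3.58e-06, averaged 1.05e-08). Aldh1a2, the enzyme that makes retinoic acid in the embryo (chromosome 9, 71215789 to 71296243), was 4.34-fold higher at 3663 ± 210.00, against 843 ± 19.7 in Tomato+ cells (SD, n = 3 each; limma adjusted p = 5.42e-06, averaged 2.94e-07). Mef2c, a factor of the heart field and of muscle, was not higher in cells sorted by its own fragment. It averaged 1991 ± 124 normalized reads in GFP+ cells and 1444 ± 29.1 in Tomato+ cells (SD, n = 3 each; limma adjusted p = 0.00488, and 0.104 with replicates 1 and 3 averaged). Of 6 measured genes of the anterior SHF, 4 were higher in GFP+ cells and 0 were lower (2 and 0 with replicates 1 and 3 averaged).

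Marker genes of other cell types moved with the comparison in both directions. Over all genes, 19.7% were called higher and 20.0% lower (8.90% and 9.24% averaged). Of 11 cardiomyocyte genes, 9 were higher and 0 lower in GFP+ cells (10 and 0 averaged), with a summed level of 30857 to 35760 normalized reads in GFP+ and 4394 to 4951 in Tomato+ libraries. Of 11 endodermal genes of the pharynx and foregut, 9 were higher and 0 lower (8 and 0 averaged), with sums of 8165 to 9016 and 1302 to 1454. Of 6 genes of the proepicardium and mesothelium, 5 were higher and 0 lower, but 2 and 0 when replicates 1 and 3 were averaged, with sums of 2199 to 2656 in GFP+ and 908 to 1058 in Tomato+ libraries. These 3 lists lay on the GFP+ side.

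Blood and nerve lay on the other side. Of 15 genes of primitive erythroid cells, 0 were higher and 14 lower in GFP+ cells (0 and 14 averaged), with sums of 5514 to 6549 in GFP+ and 121154 to 144697 in Tomato+ libraries. All 8 macrophage genes were lower (6 averaged), with sums of 63.6 to 88.1 and 1730 to 2040, and C1qb, a complement gene of macrophages, was at 0 in every GFP+ library. Of 14 genes of the neural tube and neurons, 0 were higher and 12 lower (11 averaged), with sums of 6685 to 6975 in GFP+ and 22590 to 23891 in Tomato+ libraries. Of 9 endothelial genes, 0 were higher and 6 lower (3 averaged), with sums of 1383 to 1561 in GFP+ and 2275 to 2680 in Tomato+ libraries, and of 11 neural crest genes 0 were higher and 6 lower (4 averaged), with sums of 6312 to 6961 and 12366 to 13169. Within endothelium, Cdh5 and Pecam1 were 6.72-fold and 4.93-fold lower in GFP+ cells, whereas Kdr and Tek gave ratios of 1.21 and 1.05 and did not pass (limma adjusted p = 0.0948 and 0.773, averaged 0.418 and 0.826). Of 6 somite genes 1 was higher and 4 lower (1 and 3 averaged), of 6 limb and lateral plate genes 2 and 1 (0 and 1), and of 3 liver genes 0 and 2 (0 and 1). The part that such cells play in the differences of other genes was not tested.

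**Figure D2:**
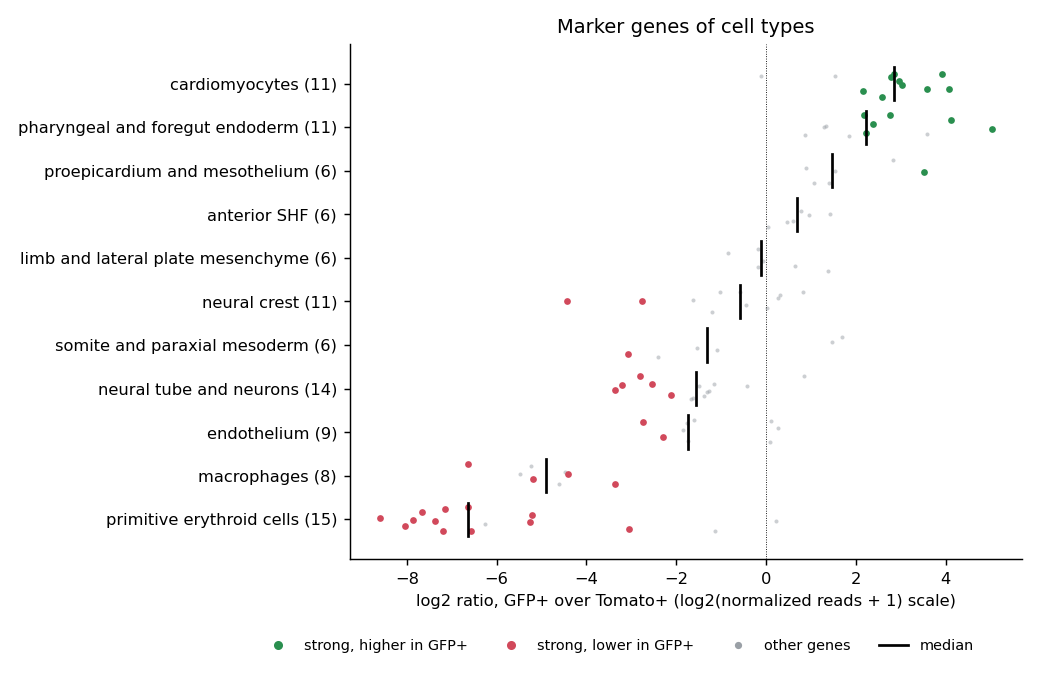
Each point is a marker gene on the log2 ratio scale, each row a cell type with its number of measured genes, the bar its median, and colours mark strong differences. Medians run from 2.84 for cardiomyocytes to −6.64 for primitive erythroid cells, with the anterior SHF genes at 0.69.

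The cardiac list was made of contractile and related muscle genes. Actc1, the actin of the cardiac sarcomere (chromosome 2, 114047282 to 114053548), had 5555, 5774 and 5356 normalized reads in GFP+ cells, against 362, 348 and 286 in Tomato+ cells, 16.8-fold (limma adjusted p = 1.15e-06, averaged 9.32e-11). Myl7, an atrial myosin light chain (chromosome 11, 5896637 to 5898782), had 616, 689 and 594 in GFP+ cells, against 41, 99.1 and 33.8 in Tomato+ cells, 12-fold (limma adjusted p = 0.00035, averaged 4.37e-05). Among the 10 largest positive ratios of all strong differences, 4 genes belonged to heart muscle. Smyd1, a methyltransferase of muscle, was 33.4-fold higher, Alpk3, a kinase of heart muscle, 40.6-fold, Ankrd1, an ankyrin repeat protein of the sarcomere, 32.7-fold, and Tnnc1, the calcium-binding troponin, 32.5-fold (limma adjusted p between 3.45e-05 and 0.000327, averaged between 3.78e-08 and 0.0021). Tnni3, the cardiac troponin I, was no higher, with 32.2, 47 and 33 in GFP+ cells and 24.6, 116 and 22.3 in Tomato+ cells, where the groups overlap.

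The start regions of 4 of these genes are shown because they stand for the posterior, cardiac and erythroid genes described here. The windows run from 250 bases before to 50 bases after the annotated start (RefSeq, GRCm38.p6). Capitals mark the 8-letter HOX and PBX pattern TGATNNAT in Hoxb1 (chr11:96365508-96365807, plus strand), the CArG box, bound by SRF, in Actc1 (chr2:114052826-114053125, minus strand, where TATAAA is also in capitals) and in Myl7 (chr11:5898733-5899032, minus strand), and TATAAA in Hba-x (chr11:32276350-32276649, plus strand).
Hoxb1: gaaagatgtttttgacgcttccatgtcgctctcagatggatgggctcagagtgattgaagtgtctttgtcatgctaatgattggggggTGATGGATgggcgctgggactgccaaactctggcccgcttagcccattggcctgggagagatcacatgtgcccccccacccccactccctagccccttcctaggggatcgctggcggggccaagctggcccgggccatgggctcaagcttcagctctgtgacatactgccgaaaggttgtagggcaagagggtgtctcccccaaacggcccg
Actc1: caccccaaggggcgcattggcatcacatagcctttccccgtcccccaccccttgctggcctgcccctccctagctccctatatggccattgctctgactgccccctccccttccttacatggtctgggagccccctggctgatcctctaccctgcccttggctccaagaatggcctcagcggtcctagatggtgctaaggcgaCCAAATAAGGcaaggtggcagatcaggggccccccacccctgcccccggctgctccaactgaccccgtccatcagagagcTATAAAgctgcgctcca
Myl7: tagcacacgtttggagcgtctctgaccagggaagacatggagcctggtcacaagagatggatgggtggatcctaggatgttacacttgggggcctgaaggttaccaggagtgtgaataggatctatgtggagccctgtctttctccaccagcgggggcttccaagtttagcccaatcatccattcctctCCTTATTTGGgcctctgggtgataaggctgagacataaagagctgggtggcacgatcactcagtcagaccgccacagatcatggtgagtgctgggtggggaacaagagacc
Hba-x: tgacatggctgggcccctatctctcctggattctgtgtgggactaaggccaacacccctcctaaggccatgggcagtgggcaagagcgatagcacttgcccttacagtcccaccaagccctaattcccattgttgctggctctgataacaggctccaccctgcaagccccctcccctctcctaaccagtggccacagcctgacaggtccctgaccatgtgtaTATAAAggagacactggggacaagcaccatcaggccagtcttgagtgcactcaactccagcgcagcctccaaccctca

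Both strands of the 13416 RefSeq windows of tested genes were searched for TATAAA, the GATA pattern AGATAA, TGATNNAT and the CArG box, and matches of different patterns overlapped in 32 windows. Only 10438 of 16153 tested genes had a window, 114 of 187 strong higher genes and 312 of 503 strong lower genes. Some genes had several, so the percentages are of windows and not of genes. TATAAA was in 7.48% of all windows, in 19.1% of the 162 windows of strong genes higher in GFP+ cells and in 9.43% of the 424 windows of strong genes lower in GFP+ cells. TGATNNAT was in 4.41% of all windows, 9.88% of the higher and 4.72% of the lower set. The CArG box was in 1.40%, 3.70% and 1.42% in the same order, and AGATAA in 6.66%, 10.5% and 9.43%. The Hba-x window held no AGATAA, but it holds TGATAA, another form of the GATA pattern. A match is a string of letters and was not tested as a binding site.

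Transcription factors were more often lower than higher in GFP+ cells. Of 899 tested, 165 (18.4%) were higher and 250 (27.8%) lower (79 and 154 with replicates 1 and 3 averaged). Over all genes the called shares were 19.7% and 20.0%. In this class 16 were strong and higher against 49 strong and lower, 1.78% and 5.45%, where 1.16% and 3.11% of all genes were. Families differed in direction. Called shares, higher and lower, were 46.2% and 7.69% for forkhead and 12.1% and 60.6% for Hox genes. They were 16.1% and 45.5% for other homeobox and 16.7% and 41.7% for basic helix-loop-helix genes. Forkhead genes had 12 of 26 higher and 2 lower (5 and 1 averaged), with 4 strong, all higher. Hox genes had 4 of 33 higher and 20 lower (3 and 17 averaged), with 8 strong, all lower, and a median log2 ratio of −1.12. Other homeobox genes had 18 of 112 higher and 51 lower (9 and 38 averaged), and basic helix-loop-helix genes 12 of 72 higher and 30 lower (7 and 17 averaged). The 345 genes of the Zfp series were near balance in calls, with 52 (15.1%) higher and 54 (15.7%) lower (21 and 21 averaged). Of them, 0 were strong and higher and 4 strong and lower. With mitochondrial and globin genes left out, 34 were higher and 76 lower.

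The strong factors on the GFP+ side are known from several germ layers. Prdm1, a zinc finger repressor of the pharyngeal region, had 2329, 2644 and 2299 normalized reads in GFP+ cells, against 173, 112 and 167 in Tomato+ cells, 16.3-fold (limma adjusted p = 8.57e-06, averaged 4.17e-09). Hand1, which acts in heart and extra-embryonic mesoderm, had 350.3, 469 and 379 in GFP+ cells, against 22.8, 14.2 and 35.2 in Tomato+ cells, 16.9-fold (limma adjusted p = 0.000149, averaged 4.96e-05). Every GFP+ library lay far above every Tomato+ library for both. Gata5, a partner of Gata4 in heart and gut, was 15.8-fold higher, and Tbx20, a T-box gene of the heart, 4.09-fold. Barx1, of stomach mesenchyme, was 8.02-fold higher. Sall4, of early progenitors, and Nr6a1, a nuclear receptor of early embryos, were 7.18-fold and 4.03-fold higher at means of 2477 and 4427 normalized reads in GFP+ cells (limma adjusted p for these 5 between 2.04e-05 and 0.000113, averaged between 3.59e-07 and 0.000375).

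Foxi2 and Foxi3 were close to present or absent. Foxi2, an ectodermal forkhead gene, had 209, 238 and 204 normalized reads in GFP+ cells, against 0, 0 and 1.44 in Tomato+ cells. Foxi3, which acts in the placodes and ectoderm around the pharynx, had 219, 105 and 210.3 in GFP+ cells, against 0.91, 0 and 0.719 in Tomato+ cells. Foxi2 and Foxi3 were 162-fold and 114-fold higher on the log2 scale used for all genes (limma adjusted p = 0.000112 and 0.000169, averaged 0.000386 and 0.00182). Each rested on 2 reads over the Tomato+ libraries. Ratios of pooled reads, without the added 1, were 347 for Foxi2 and 287 for Foxi3. Their counting intervals were 95.6 to 2868 and 79.2 to 2377 (95%, counting error only). Olig2, a factor of the ventral neural tube, was also higher, with 214, 202 and 187 in GFP+ cells, although Tomato+ cells gave 9.1, 65.1 and 6.47, of which replicate 2 stands apart.

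The strong factors on the Tomato+ side included genes known from neurons, blood and the caudal body. Nhlh2, a factor of newborn neurons, had 130.2, 134 and 142 normalized reads in GFP+ cells, against 2466, 2502 and 2555 in Tomato+ cells, 18.4-fold lower (limma adjusted p = 1.15e-06, averaged 1.53e-09). Pou2f2, a POU factor of neurons and lymphocytes, was 28.6-fold lower at 104 ± 21.4, against 2995 ± 575 in Tomato+ cells (SD, n = 3 each). Atoh1, of dorsal interneurons, Scrt1, of neurons, and Lhx5, of interneurons, were 114-fold, 69.1-fold and 36.2-fold lower, and each had at most 15.7 normalized reads in any GFP+ library. Of the erythroid regulators, Klf1 was 38.3-fold and Gata1 37.3-fold lower, and Runx1, of early blood cells, 12.2-fold. Gata1 had 0, 12.9 and 0 normalized reads in GFP+ cells, so its level there rests on replicate 2. Tfap2b, of neural crest and ectoderm, and Tbx15, of limb and skin mesenchyme, were 6.78-fold and 12.1-fold lower at Tomato+ means of 4242 and 1319.7 normalized reads (limma adjusted p = 1.71e-05 and 1.76e-05, averaged 1.31e-08 and 2.14e-07). Hoxa13 and Hoxd12, genes of the tail and distal limb, were nearly absent from GFP+ cells. Hoxa13 had 0, 0.922 and 1.1 in GFP+ cells, against 192, 321 and 202 in Tomato+ cells. Hoxd12 had 0, 0 and 1.1 in GFP+ cells, against 102, 101 and 111 in Tomato+ cells. Hoxd11 was lower in all GFP+ libraries, but its 3 values there, 2.19, 50.7 and 1.1, were far from alike.

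**Figure D3:**
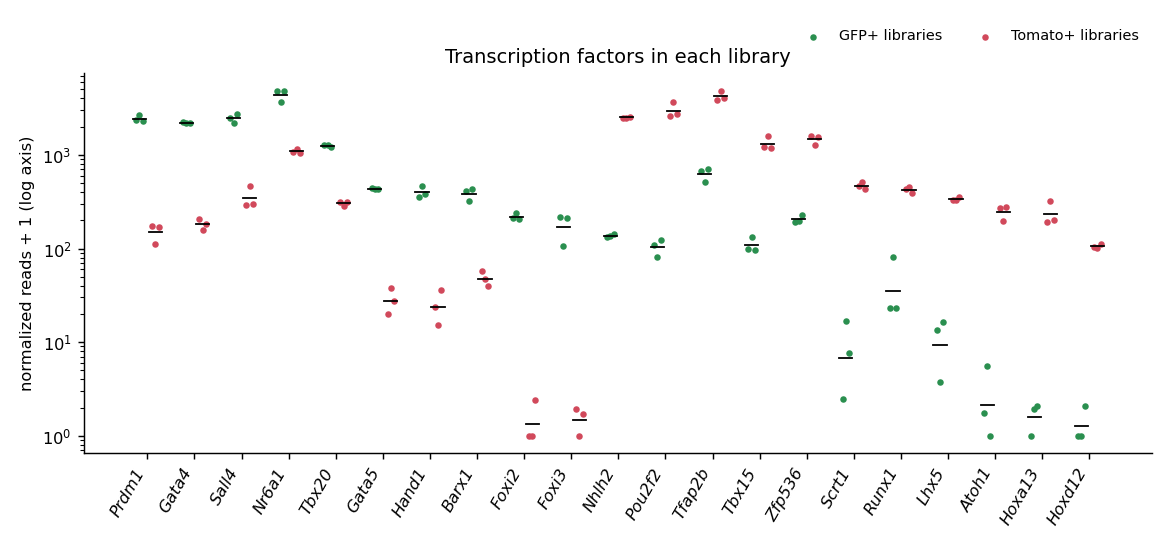
Normalized reads plus 1 on a log axis for 21 named transcription factors, with a point per library, GFP+ libraries left of Tomato+ libraries, and black bars at the mean of the log values. For the 10 genes on the left GFP+ libraries lie above all Tomato+ libraries, as for Gata4 with 2169.8 to 2238 against 159 to 206, and for the 11 on the right they lie below.

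Ligands were the class with the most even balance. Of 171 tested, 45 were higher and 39 lower in GFP+ cells (26 and 19 averaged), and 6 were strong and higher against 5 strong and lower. The called shares were 26.3% and 22.8%, where 19.7% and 20.0% of all genes were called. With mitochondrial and globin genes left out, the counts were 41 higher and 46 lower, so no direction holds for the class. Shh, secreted by pharyngeal endoderm and the floor plate (chromosome 5, 28456815 to 28467256), had 1281, 1548 and 1332 normalized reads in GFP+ cells, against 47.3, 32.6 and 46 in Tomato+ cells, 32.6-fold (limma adjusted p = 5.43e-06, averaged 1.85e-08). Shh is itself a member of the endoderm list counted above, so its moving with that list is partly fixed. The part of endoderm cells in its level was not tested. Wnt2, a ligand of the posterior SHF and foregut mesoderm, was 11.6-fold higher, Fgf1 12.1-fold, Gdf6, a Bmp family member, 6.68-fold, and Apela, a peptide ligand of the apelin receptor, 21.9-fold (limma adjusted p between 9.88e-05 and 0.000599, averaged between 0.000239 and 0.000682). Bmp10, a ligand of heart muscle, had 257, 218 and 263 in GFP+ cells, against 4.55, 56.6 and 1.44 in Tomato+ cells, with replicate 2 far above the other Tomato+ libraries (limma adjusted p = 0.00857, averaged 0.00567).

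The ligands lower in GFP+ cells included Igf1, a growth factor, with 162, 425 and 184 normalized reads in GFP+ cells, against 3343, 3948 and 3459 in Tomato+ cells, 15.3-fold (limma adjusted p = 0.000113, averaged 5.01e-08). Fstl5, a secreted follistatin-like protein, was 60.4-fold lower and Wnt7b 20.3-fold lower. Dll3, a divergent Notch ligand, was 7.45-fold lower (limma adjusted p for these 3 between 7.73e-05 and 0.000847, averaged between 0.000193 and 0.0081). Ligands took 1.12 ± 0.0364% of normalized reads outside mitochondrial genes in GFP+ cells and 0.780 ± 0.0388% in Tomato+ cells (SD, n = 3 each), and 80.2% of this difference came from Igf2, the main embryonic growth factor. Igf2, named after its values were seen, had 78184, 80266 and 78429 normalized reads in GFP+ cells, against 19278, 27602 and 19382 in Tomato+ cells, 3.63-fold (limma adjusted p = 5.87e-05, averaged 2.84e-07). Igf2 and Igf1 thus differed in opposite directions.

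Receptors were more often lower than higher in GFP+ cells. Of 265 tested, 44 were higher and 87 lower (18 and 51 averaged), 1 was strong and higher and 20 were strong and lower, 0.377% and 7.55% of the class, and the median log2 ratio was −0.32. Called receptors made up 16.6% and 32.8% of the class, against 19.7% and 20.0% of all genes. G protein-coupled receptors had 11 of 111 higher and 38 lower (2 and 25 averaged) and held 12 of the 20 strong and lower receptors. Receptor tyrosine kinases and growth factor receptors had 2 of 27 higher and 12 lower (2 and 8 averaged). Epha1, an ephrin receptor of epithelia, was the strong gene on the GFP+ side, with 265, 163 and 289.6 normalized reads in GFP+ cells, against 55.5, 62.3 and 50.3 in Tomato+ cells, 4.1-fold (limma adjusted p = 0.00137, averaged 0.0234).

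Strong receptors on the Tomato+ side included genes of neurons and blood cells. Robo3, which steers commissural axons, had 14.6, 4.61 and 25.3 normalized reads in GFP+ cells, against 2646, 3543 and 2662 in Tomato+ cells, 221-fold lower (limma adjusted p = 3.85e-05, averaged 1.87e-09). Epha5, of axons, and Celsr3, an atypical cadherin receptor of neurons, were 13.7-fold and 7.88-fold lower. Csf2rb, the shared chain of myeloid cytokine receptors, was 107-fold lower, Cx3cr1 and Csf1r, of macrophages, 21.4-fold and 10.3-fold, and Epor, the erythropoietin receptor, 8.31-fold. Grm2, a glutamate receptor, and Adra2b, an adrenergic receptor, were 38.9-fold and 43.3-fold lower from Tomato+ means of 145 and 105 (limma adjusted p for these 8 between 6.58e-05 and 0.00336, averaged between 8.61e-07 and 0.00737). The neural and macrophage sums given above moved the same way, and their part was not tested. Cx3cr1 and Csf1r are themselves members of the macrophage list, and Epor of the erythroid list. Hedgehog receptors, with 3 of 6 higher and 2 lower (3 and 1 averaged), and Notch receptors, with 1 of 4 higher and 1 lower (1 and 1 averaged), had 0 strong members.

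Matrix and adhesion genes were more often lower in GFP+ cells, with strong members on both sides. Of 338 tested, 60 were higher and 125 lower in GFP+ cells (35 and 70 averaged), 17.8% and 37.0% of the class, against 19.7% and 20.0% of all genes. Strong members numbered 8 higher and 25 lower. Those on the GFP+ side included genes of epithelia and basement membranes. Cldn6, a tight junction protein of embryonic epithelia, had 4179, 3294 and 4309 normalized reads in GFP+ cells, against 267, 169.9 and 249.6 in Tomato+ cells, 17.3-fold (limma adjusted p = 8.83e-06, averaged 1.14e-09). Dsg2 and Dsc2, the desmosomal cadherins, were 6.61-fold and 5.89-fold higher, F11r, a junctional adhesion molecule, 4.52-fold, Lama5, a laminin chain, 6.05-fold, and Npnt, a basement membrane ligand of integrins, 4.73-fold (limma adjusted p between 7.71e-06 and 0.00286, averaged between 9.2e-07 and 0.0039). The laminin and basement membrane group as a whole had 6 of 19 higher and 3 lower (5 and 2 averaged), or 5 and 6 with mitochondrial and globin genes left out.

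Those on the Tomato+ side included neural matrix genes and collagens. Ncan, a proteoglycan of the nervous system, had 154, 69.1 and 175 normalized reads in GFP+ cells, against 4068, 4529 and 4137 in Tomato+ cells, 34.2-fold lower (limma adjusted p = 3.28e-05, averaged 7.81e-10). Cntn2, an adhesion molecule of early axons, was 20-fold lower at 193 ± 30.2, against 3851 ± 133 in Tomato+ cells (SD, n = 3 each). Cadm2 and Tnr, both of neural tissue, were 22.3-fold and 12.7-fold lower, Itgam, an integrin of myeloid cells, 16.3-fold, and Fmod, a small proteoglycan of connective tissue, 20.9-fold (limma adjusted p between 0.000492 and 0.00246, averaged between 0.00038 and 0.0119). Collagens had 3 of 38 higher and 16 lower (0 and 12 averaged), with Col6a3 8.24-fold and Col8a1 5.11-fold lower. Cadherins and protocadherins had 5 of 66 higher and 33 lower (5 and 11 averaged) and the lowest median of the matrix groups, −0.85.

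Collagens took 0.142 ± 0.00251% of normalized reads outside mitochondrial genes in GFP+ cells and 0.245 ± 0.00914% in Tomato+ cells, and cadherins 0.268 ± 0.00916% and 0.410 ± 0.00891% (SD, n = 3 each; exact permutation p = 0.1, the smallest that 3 against 3 libraries allow). Col1a2, a chain of type I collagen, carried 27.9% of the collagen difference, with 2465, 2541 and 2369.6 normalized reads in GFP+ cells, against 7723, 7054 and 7641 in Tomato+ cells. Fat4, a giant atypical cadherin, carried 36.9% of the cadherin difference, with 5381, 4463 and 5380.1 in GFP+ cells, against 14814, 12608 and 14986 in Tomato+ cells. Both were named after their values were seen. Its relative Fat1 differed little, with 14014, 11853 and 13710.2 in GFP+ cells, against 13841, 11262 and 13797 in Tomato+ cells.

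**Figure D4:**
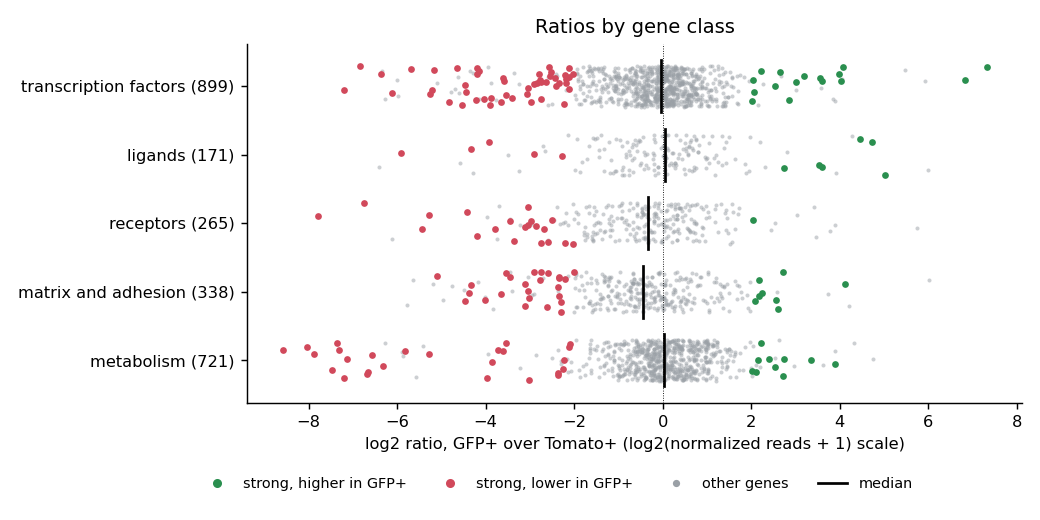
Each point is a gene on the log2 ratio scale, each row a class with its number of genes, the bar its median, and colours mark strong differences. Transcription factors have 16 strong genes on the right and 49 on the left, receptors 1 and 20, and matrix and adhesion genes 8 and 25, while most genes of every class lie near 0.

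In metabolism, glycolytic, nucleotide and amino acid genes were more often higher in GFP+ cells, and heme genes more often lower. Of 721 genes, 174 were higher and 146 lower in GFP+ cells (96 and 66 averaged), but 137 higher and 168 lower with mitochondrial and globin genes left out. The called shares were 24.1% and 20.2%, where 19.7% and 20.0% of all genes were called. The sub-groups that follow kept the direction of their counts under each scaling tried, and all but the respiratory chain were more uniform. Of 58 genes of glycolysis and glucose transport 22 were higher and 8 lower (17 and 3 averaged), of 56 nucleotide genes 23 and 6 (17 and 0), and of 47 genes of amino acid and one-carbon metabolism 23 and 4 (13 and 0). Sterol synthesis ran the other way, with 3 of 28 higher and 8 lower (0 and 3). The respiratory chain had 14 of 89 higher and 21 lower (7 and 8), or 15.7% and 23.6%, near the 19.7% and 20.0% of all genes. Its summed share of reads outside mitochondrial genes leaned the other way, at 0.469% in GFP+ and 0.411% in Tomato+ cells.

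Glycolysis and glucose transport took 0.559 ± 0.00436% of normalized reads outside mitochondrial genes in GFP+ cells and 0.251 ± 0.00731% in Tomato+ cells, a ratio of 2.23 (SD, n = 3 each; exact permutation p = 0.1). Slc2a3, a glucose transporter of high affinity (chromosome 6, 122727809 to 122801640), had 4686, 4194 and 4834 normalized reads in GFP+ cells, against 461, 442 and 433 in Tomato+ cells, 10.2-fold (limma adjusted p = 1.15e-06, averaged 1.14e-09). Ldha, which makes lactate and was named after its values were seen, had 25149.9, 26406 and 25035 in GFP+ cells, against 6441, 6247 and 6456 in Tomato+ cells and carried 30.1% of the group's difference. Pklr, the pyruvate kinase of liver and red cells, moved against the group, with 0.731, 8.3 and 1.1 in GFP+ cells, against 340.4, 323 and 315 in Tomato+ cells.

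Nucleotide genes took 0.477 ± 0.0176% of normalized reads in GFP+ cells and 0.297 ± 0.00706% in Tomato+ cells, and amino acid and one-carbon genes 0.364 ± 0.00149% and 0.249 ± 0.00498% (SD, n = 3 each; exact permutation p = 0.1). Paics, an enzyme of purine synthesis named after its values were seen, carried 49.8% of the nucleotide difference, with 25516, 27613 and 24839 in GFP+ cells, against 7336, 7618 and 7226 in Tomato+ cells, 3.51-fold (limma adjusted p = 3.87e-06, averaged 4.29e-08). Ak4, a mitochondrial adenylate kinase, was 4.47-fold higher. Gmps, which makes GMP, lay within 1.5-fold by its interval from 3 libraries. Its GFP+ values of 6559, 10165 and 6332 were not alike, and replicate 2 alone gave a log2 ratio of 0.69. Arg1, the arginase that yields urea and ornithine (chromosome 10, 24915221 to 24927484), had 4864, 4552 and 4873 in GFP+ cells, against 277, 381 and 309 in Tomato+ cells, 14.9-fold (limma adjusted p = 2.61e-06, averaged 3.83e-10). Every GFP+ library exceeded every Tomato+ library for these genes except Gmps.

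Retinoid, redox and transport genes added single members. Cyp1b1, a P450 enzyme that acts on retinoids and steroids, was higher by 4.65-fold (limma adjusted p = 0.000787, averaged 2.12e-05), though its group, of retinoid genes and P450 enzymes, had 10 of 39 higher and 8 lower (4 and 3 averaged), or 7 and 8 with mitochondrial and globin genes left out. Gpx3 and Gpx4, glutathione peroxidases, were 5.79-fold and 6.54-fold higher (limma adjusted p = 2.83e-05 and 0.00525, averaged 1.55e-06 and 0.0433). Slc10a3, a carrier-like membrane protein, passed at 6.7-fold (limma adjusted p = 0.0249, averaged 0.0164) but not when any 1 of the 3 GFP+ libraries was left out. Cpt1a, which admits fatty acids to mitochondria, and Fabp7, a fatty acid binding protein of radial glia, were 11.6-fold and 14.6-fold lower in GFP+ cells, and Slc17a6, the glutamate transporter of synaptic vesicles, had 1.46, 0 and 1.1 there, against 233, 494 and 246 in Tomato+ cells.

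Heme and iron genes had 1 of 31 higher and 22 lower in GFP+ cells (0 and 17 averaged), 9 strong, all lower, and a median log2 ratio of −1.47. With mitochondrial and globin genes left out, 0 of 22 were higher and 14 lower, with a median of −0.91. Hba-x, the embryonic alpha-like globin of primitive red cells (chromosome 11, 32276400 to 32278116), had 301, 404 and 476 normalized reads in GFP+ cells, against 58794, 74569.9 and 60125 in Tomato+ cells, 165-fold lower (limma adjusted p = 9.48e-07, averaged 5.94e-17). Hbb-y, its beta-like counterpart, had 107, 179.7 and 259.9 in GFP+ cells, against 37943, 42779 and 40144 in Tomato+ cells. Globins took 0.00331 ± 0.000969% of normalized reads outside mitochondrial genes in GFP+ cells and 0.652 ± 0.0789% in Tomato+ cells (SD, n = 3 each; exact permutation p = 0.1). Hba-a1, an adult alpha globin, was 264-fold lower, and Hbb-bs, an adult beta globin, 386-fold. Hbb-bs rested on 1 read over the GFP+ libraries. Its ratio of pooled reads, without the added 1, was 1654, with a counting interval of 296 to 65375. Hba-a1 and Hbb-bs have near-identical copies, between which reads may have been divided. Alas2, the erythroid enzyme that starts heme synthesis, was only 2.21-fold lower, at 464, 248 and 423 in GFP+ cells, against 871, 658 and 926 in Tomato+ cells. Tfrc, the transferrin receptor of dividing cells, gave a ratio of 1.17 and did not pass (limma adjusted p = 0.149, averaged 0.22).

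**Figure D5:**
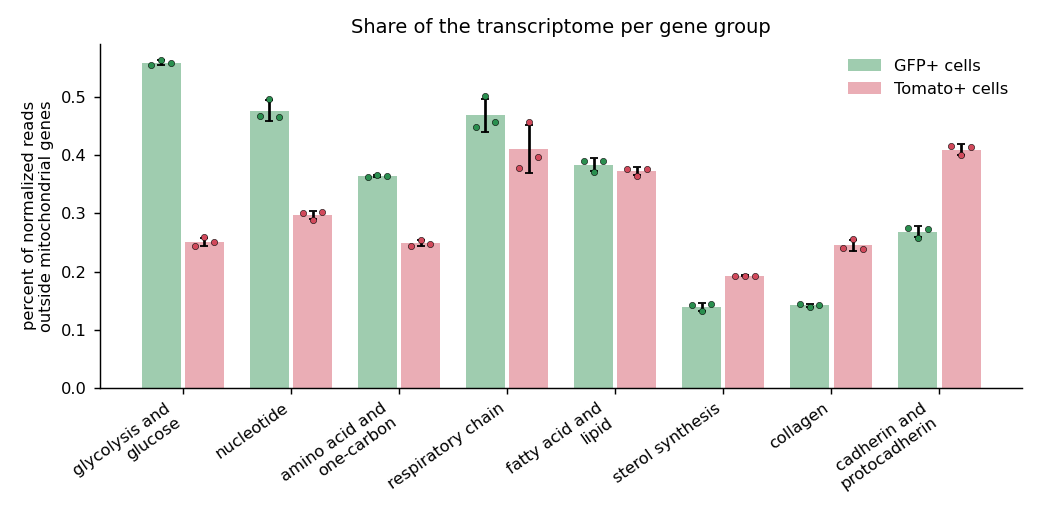
Bars are mean shares of normalized reads outside mitochondrial genes, in percent, with SD over 3 libraries and a point per library, GFP+ left of Tomato+. Glycolysis stands at 0.559% in GFP+ cells against 0.251% in Tomato+ cells, and collagen at 0.142% against 0.245%, whereas the libraries of the groups overlap for the respiratory chain and for fatty acid and lipid genes.

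Outside these classes, the largest positive ratios included Ripply3, a corepressor of the pharyngeal region, with 698, 934 and 779 normalized reads in GFP+ cells, against 20.9, 12.7 and 20.1 in Tomato+ cells, 43.1-fold (limma adjusted p = 1.41e-05, averaged 3.59e-07). Ctxn3, a small membrane protein, had 199.7, 113 and 178 in GFP+ cells, against 0, 2.83 and 0 in Tomato+ cells. Car4, a membrane-bound carbonic anhydrase, had 229.6, 319 and 228 in GFP+ cells, against 1.82, 51 and 0 in Tomato+ cells, where replicate 2 stands apart, and DESeq2 did not call it. The largest negative ratios included genes of red cells and neurons. Hemgn, a nuclear protein of blood progenitors, had 0, 2.77 and 2.2 in GFP+ cells, against 1841, 1845 and 1833 in Tomato+ cells, 803-fold lower (limma adjusted p = 1.68e-05, averaged 6.52e-09). Gad2, which makes the transmitter GABA, had 0, 0 and 6.61 in GFP+ cells, against 734, 1005 and 700.5 in Tomato+ cells, 409-fold lower. Rhag, of the red cell membrane, and Fyb, an adaptor of blood cells, had at most 2.2 and 0.731 normalized reads in a GFP+ library, against means of 289 and 228 in Tomato+ cells. Mir9-3hg, a host transcript of a neural microRNA, had 1 read over the GFP+ libraries, against 513, 590.3 and 493 normalized reads in Tomato+ cells.

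Few genes were present in all libraries of a population and nearly absent from the other. With at least 50 normalized reads in every library of a population and at most 5 in every library of the other, 10 genes were found on the GFP+ side and 74 on the Tomato+ side. The GFP+ side held Foxi2, Foxi3 and Ctxn3. Named after their values were seen, it also held Cldn9, a claudin with 56.3, 57.1 and 79.3 in GFP+ cells and no read in any Tomato+ library, Tnfsf18, a cytokine of the tumour necrosis factor family with 95.1, 107 and 91.4 in GFP+ cells, against 2.73, 0 and 0 in Tomato+ cells, and Myo18b, an unconventional myosin of striated muscle with 64.4, 69.1 and 61.7 in GFP+ cells, against 4.55, 0 and 3.6 in Tomato+ cells. The Tomato+ side included Atoh1, Hoxa13, Hoxd12, Csf2rb, Grm2, Fstl5 and Slc17a6 from above, and Slc14a1, a urea transporter of red cells, with 2.93, 0 and 1.1 in GFP+ cells, against 265, 402 and 313 in Tomato+ cells. Of the 899 transcription factors, 2 on the GFP+ side and 6 on the Tomato+ side were of this kind, beside 10 and 74 of all 16153 genes.

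At the other extreme, 2866 genes (17.7%) had a 95% interval within 1.5-fold in both directions, or 1183 with replicates 1 and 3 averaged. Zfp292, a zinc finger gene, had 9848, 12551 and 9963 normalized reads in GFP+ cells, against 11189, 10793 and 10999 in Tomato+ cells, a log2 ratio of −0.04 ± 0.10 (SE). Meis2, a homeobox cofactor of Hox proteins, had 19738, 19123 and 20172 in GFP+ cells, against 15114, 15806 and 14875 in Tomato+ cells, which did not overlap at a ratio of 1.29 (limma adjusted p = 0.00284, and 0.114 with replicates 1 and 3 averaged). The receptor Igf1r gave a ratio of 1.05, the growth factor Ptn 1.04, the elastic fibre protein Fbn2 1.01 and the transporter Slc38a2 1.08, with overlap between the groups for each. The interval of Igf1r, the receptor of Igf1, was −0.21 to 0.36 on the log2 scale.

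Counts by abundance and gene type are given for the authors' size factors, and other scalings were not run for them. They are to be read against the 19.7% of all genes called higher and 20.0% called lower (8.90% and 9.24% averaged). Of 4220 genes with a mean over 1000 normalized reads, 1415 (33.5%) were higher and 758 (18.0%) lower in GFP+ cells (827 and 398 averaged). Of 4391 genes between 10 and 100, 458 (10.4%) were higher and 825 (18.8%) lower (88 and 260 averaged). Of 12571 protein-coding genes, 2774 (22.1%) were higher and 2491 (19.8%) lower (1311 and 1188 averaged), near the shares of all genes. For 333 lincRNA genes the counts were 44 (13.2%) and 71 (21.3%), or 16 and 34 averaged. For 947 genes of the TEC type, transcripts whose status is still open in the annotation, they were 86 (9.08%) and 235 (24.8%), or 23 and 121 averaged. Of 74 small nucleolar RNA genes, 18 (24.3%) were higher and 3 (4.05%) lower (5 and 0 averaged). Since the libraries kept no strand, reads of antisense and sense partners cannot be told apart in the 574 antisense genes, of which 63 were higher and 115 lower (21 and 46 averaged). Of 5 sex-linked markers 0 were called, or 1 was lower with mitochondrial and globin genes left out, and of 6 genes of chromosome Y 2 were higher (0 averaged).

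Of 10 measured immediate early genes, which tissue digestion can induce, 0 were higher and 4 lower in GFP+ cells (0 and 2 averaged). Shares over all genes were 19.7% higher and 20.0% lower (8.90% and 9.24% averaged). Sums of the 10 genes were 4929 to 5582 in GFP+ and 7193 to 7616 in Tomato+ libraries. Fos was 3.16-fold and Egr1 2.02-fold lower, whereas Jun had a log2 ratio of −0.05 and did not pass (limma adjusted p = 0.000429, 0.000986 and 0.748, averaged 0.00487, 0.000805 and 0.815).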

How the data were processed

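The authors dissected the SHF region, sorted cells, amplified 2 ng of RNA with an unstranded kit and sequenced it. According to their processing notes, reads were converted with bcl2fastq 2.17.1.14, aligned to GRCm38 with STAR 2.5.2, counted with HTSeq and normalized with DESeq2 in R 3.3.4; a further methods paragraph of the study describes RSEM on an Ensembl release and edgeR, which does not match the DESeq2 columns of the table, so the annotation release behind the table is uncertain. The deposited table holds, for each library, the signal of a gene as reads divided by a size factor, and 100% of these values gave whole reads within 0.01. It also holds the authors' log2 fold changes, test score and p-values of their own comparison, which were not used, and the libraries of GFP-negative and Tomato-negative cells were left out.

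Values were tested as log2(normalized reads + 1) with limma 3.58.1 (trend, two-sided) in R 4.3.3, with Benjamini-Hochberg adjustment over the 16153 genes. Symbols were matched to GENCODE M21 on GRCm38 for position and type, and 15768 of 16302 (96.7%) matched 1 gene. Classes are families of gene symbols, corrected for 1 family after the values were seen. Members and lists were chosen with earlier results of these data known. Genes named are the given markers, the 10 largest strong differences in each direction, the 5 largest per class and 2 largest per sub-class in each direction, the 3 most abundant per class among those within 1.5-fold, and members of marker lists; others are said to have been named after their values were seen. Symbols of predicted genes were counted but not named. A few genes that this rule names are not reported here. Alternatives were other pseudocounts, filters, scalings (TMM, upper quartile, without mitochondrial and globin genes), edgeR 4.0.16 and DESeq2 1.42.0 on the recovered reads, replicates 1 and 3 averaged, a replicate block and leaving out each library. The scripts were tested on simulated data, in which near copies among the replicates raised the false calls of the fit to 3 libraries well above its threshold but not those of the averaged fit. The simulated scatter was the same for every gene, so this does not show how the averaged fit performs on these data. Counting intervals of reads are exact at 95% and cover counting error only. The ratios beside them are of reads pooled over libraries, without the added 1. The 3-read floor is per library, and depths are given in the text above.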

Additional observations from a re-analysis of the deposited data

How the results depend on the processing

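Most limits come from replicates 1 and 3 being near copies, so the number of calls depends on how they are counted. With them averaged, 1437 genes were higher and 1493 lower in GFP+ cells, for transcription factors 79 and 154, ligands 26 and 19, receptors 18 and 51, matrix and adhesion 35 and 70, metabolism 96 and 66, and 1183 genes lay within 1.5-fold. Averaging was applied to the count within 1.5-fold after seeing the data. Leaving out 1 library gave 2068 to 4038 genes higher and 2134 to 3875 lower. The lowest counts came without GFP+ replicate 3 (2068 higher) or Tomato+ replicate 1 (2134 lower), and GFP+ replicate 1 (2069 higher) and Tomato+ replicate 3 (2137 lower) acted alike. Receptors higher ranged from 23 to 61 and metabolism lower from 92 to 165. All other class and strong counts stayed within 1.5 times under the alternatives run, apart from averaging.

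Sign changes were checked only for the given markers, the genes named for large differences and those named as differing little. Other called genes were not checked. Among the genes checked, no call reversed. Signs turned only for genes named as differing little. None of the genes that turned was called with all 6 libraries, although Ptn, Igf1r and Zfp292 passed without GFP+ replicate 2. On the log2 scale these were, averaged, Ptn at −0.0397 and Zfp292 at 0.0271, with upper quartile scaling Fat1 at −0.0492, Fbn2 at −0.0574, Igf1r at −0.00163 and Ptn at −0.0140, and without mitochondrial and globin genes Adgrl2 at −0.0437, Efnb2 at −0.0264, Fat1 at −0.115, Fbn2 at −0.124, Igf1r at −0.0677, Ptn at −0.0802 and Slc38a2 at −0.0350. Leaving out 1 library moved Fat1 from −0.0709 to 0.103, Ptn from −0.0411 to 0.253, Zfp292 from −0.150 to 0.0247, Gmps from −0.0637 to 0.278, Fbn2 from −0.0781 to 0.0717, Igf1r from −0.00987 to 0.226 and Adgrl2 from −0.0519 to 0.178. Same-numbered libraries of both groups correlated at only 0.01 to 0.02 in their deviations, although 5 of 6 libraries correlated best with their own number. Replicate 2 also stood apart in both groups by its share of mitochondrial reads, 42.4% in GFP+ and 43.7% in Tomato+ cells. The other libraries used had 32.8% to 34.5%. Whether same-numbered libraries were processed together is not stated in the labels and was not tested. The fit with the replicate block called 2982 genes higher and 3009 lower, with 185 and 497 strong.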
